A study of Rattus norvegicus with 15 samples.

Results

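The genes described here encode glycosyltransferases that build the sugar chains of mucins and other cell surface molecules, with Cmah, an enzyme that modifies their sialic acid building block. They are a list of names, drawn up with earlier results of these data known: every noncontrol probe whose gene name in the array files begins with St3gal, St6gal, St8sia, Fut, B3gnt, B3galt, B4galt, B4galnt, Galnt, Gcnt or Cmah was taken, and a gene with several probes was represented by the brightest. This gave 66 genes (77 probes) of 17336 named genes on the array, and 51 of the 66, of 13022 genes in all, were bright enough to be tested. The name prefixes reach beyond the mucosal surface, since they also take in enzymes of glycolipids (St3gal5, B4galt6, B4galnt1, B3galt4), of the proteoglycan linker (B3galt6, B4galt7), of dystroglycan (B4gat1) and of polysialic acid in the nervous system (St8sia2, St8sia4). The members are therefore called glycan transferases by name.

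The profiles came from the intestine of 15 male rats, 5 in each of 3 groups, and no RNA was pooled across rats. The Goto-Kakizaki (GK) strain is inbred and nonobese and develops type 2 diabetes. GK-S-30 rats received Roux-en-Y gastric bypass (RYGB) at 16 wk of age with a Roux limb (RL) of 30 cm, the stretch of jejunum that was joined to the stomach pouch, and a piece of this limb near the gastric anastomosis was taken at 14 wk postoperation. In GK-Sham-PF rats, GK rats of the same age, the gut was cut 16 cm past the ligament of Treitz and sewn back in its old course, and these rats were given as much food as the surgical group that ate least. Wistar rats were nondiabetic controls without operation, age-matched by the methods. In GK-Sham-PF and Wistar rats the piece at the corresponding distance from the ligament of Treitz was taken. Strain, diabetes, sham operation and pair feeding all separate GK-Sham-PF from Wistar rats and cannot be told apart. All rats were male, and 1 limb length was profiled.

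Mucin-type O-glycans start when a Galnt enzyme puts N-acetylgalactosamine on serine or threonine. The first sugar is then extended to core structures, among them core 3 by B3gnt6 and the branched cores by Gcnt1 and Gcnt3, and B3gnt and B4galt enzymes lengthen the arms with N-acetyllactosamine. The chains are capped with fucose by Fut enzymes or with sialic acid by St3gal, St6gal, St6galnac and St8sia enzymes. Sialyl-Tn, the shortest sialylated O-glycan, is made by St6galnac1, which closes the chain before a core is built. Cmah is no transferase: it hydroxylates CMP-N-acetylneuraminic acid to CMP-N-glycolylneuraminic acid, the donor for the second common sialic acid of rodents. In the intestine these sugars form the mucus gel and the glycocalyx of enterocytes, and bacteria and lectins bind to them.

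Each member was read through 1 60-base probe, so the comparisons below rest on the sequences the arrays carry. The first 30 bases are shown for the probes behind the largest differences of GK-Sham-PF from Wistar (St6galnac1, Cmah, St8sia6, B3gnt6) and behind the rises in the RL (St3gal4, Gcnt3, Fut1, Fut2), as the array files give them, 5′ to 3′. By the rn4 annotation in the files, St6galnac1 lies at chr10:106872032-106872091 (minus strand), Cmah at chr17:47672498-47672557 (minus), B3gnt6 at chr1:155436757-155436816 (minus), Gcnt3 at chr8:74471104-74471163 (minus), Fut1 at chr1:96088579-96088638 (plus) and Fut2 at chr1:96119035-96119094 (minus). The probes of St8sia6, chr17:87928385-87929618 (minus), and St3gal4, chr8:34851794-34852570 (minus), span 1234 and 777 bases of the genome, more than their 60 bases, so each crosses at least 1 splice junction. The files state no exon or UTR for the others.
St6galnac1: aaacggctcatcttttacataaaccatgac
Cmah: tgaccgtcacctacctcttgattttgacct
St8sia6: cccagcatcataaccctgaaatacaagaat
B3gnt6: aacgtctctgtggacctcctggatggcttc
St3gal4: cgatggacttccactggattgagaccatct
Gcnt3: actggatacttcagaaccatcacctcttgg
Fut1: ccttccaagactctagacagtgaagaattt
Fut2: cctctcacaattaaaaaatacaacctatgc

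The 250 bases before the annotated start are shown for 4 genes, the pair with the largest differences from Wistar and the pair that was higher in each step from Wistar to GK-Sham-PF to GK-S-30. They were read from RefSeq (build GRCr8, 5′ to 3′ on the strand of the gene): St6galnac1 at chr10:102481877-102482126 (minus), Cmah, listed as Cmahp, at chr17:41067931-41068180 (minus), Gcnt3 at chr8:79573558-79573807 (minus) and St3gal4 at chr8:41704811-41705060 (minus), of 3 starts the only one of St3gal4 with a match. Capitals mark matches on either strand to TATAAA (the core promoter box), TTTATG (motif of CDX factors), AGATAA (bound by factors of the GATA family), CAAAGT (part of the HNF4 motif) and GGGCGG (bound by SP and KLF factors), and no matches overlapped here. Of all 33469 promoters in the table, 12.9% held TATAAA, 11.4% TTTATG, 10.3% AGATAA, 12.9% CAAAGT and 30.5% GGGCGG. Among 62 promoters of 56 members the shares were 8.06%, 6.45%, 6.45%, 12.9% and 46.8%. The Gcnt3 window held none of these letters.
St6galnac1: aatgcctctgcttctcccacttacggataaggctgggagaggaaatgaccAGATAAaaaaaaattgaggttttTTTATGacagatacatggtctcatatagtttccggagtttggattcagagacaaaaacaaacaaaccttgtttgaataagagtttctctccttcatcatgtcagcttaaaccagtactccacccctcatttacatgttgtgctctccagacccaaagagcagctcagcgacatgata
Cmah: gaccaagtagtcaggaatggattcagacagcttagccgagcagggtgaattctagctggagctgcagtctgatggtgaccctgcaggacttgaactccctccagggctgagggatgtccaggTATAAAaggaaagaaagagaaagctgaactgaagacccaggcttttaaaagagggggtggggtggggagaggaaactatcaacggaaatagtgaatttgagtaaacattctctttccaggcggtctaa
Gcnt3: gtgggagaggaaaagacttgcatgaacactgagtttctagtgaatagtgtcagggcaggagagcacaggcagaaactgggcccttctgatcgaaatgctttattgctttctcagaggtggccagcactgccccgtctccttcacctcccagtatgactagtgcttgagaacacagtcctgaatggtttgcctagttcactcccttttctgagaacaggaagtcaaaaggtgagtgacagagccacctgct
St3gal4: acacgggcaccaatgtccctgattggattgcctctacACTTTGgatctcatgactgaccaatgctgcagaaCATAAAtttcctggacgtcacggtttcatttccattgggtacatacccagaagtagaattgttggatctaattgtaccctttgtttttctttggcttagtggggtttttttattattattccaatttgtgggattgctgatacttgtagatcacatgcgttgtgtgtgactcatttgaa

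Values are log2 intensities after quantile normalization and are compared between groups for 1 probe at a time, never between probes. On single arrays 66.7% to 74.8% of probes were well above background. The scans of Wistar replicate 3 and of GK-Sham-PF replicate 5 had less signal than the rest (the dimmer arrays below, with a 75th percentile of the raw signal of 224.5 each, 329.2 to 384.3 on the others). The slides were not balanced: 4 Wistar arrays shared slide A, Wistar replicate 1 lay with 3 GK-Sham-PF arrays on slide B, 2 arrays of each GK group were on slide C and the last 3 of GK-S-30 on slide D. Differences are given with slide as a fixed block where the block ends the call. With that block, 13 of the 41 calls of members stayed past the threshold. The samples were intestinal segments with strong enterocyte and goblet markers in all groups, and the summed signal of 8 smooth muscle markers was 87000 to 113000 in GK-S-30, 24900 to 52900 in GK-Sham-PF and 27200 to 47700 in Wistar rats. In such bulk samples fewer cells of a type and less RNA per cell cannot be told apart.

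Between GK-Sham-PF and Wistar rats, 12 of 51 tested members (23.5%) differed at a limma adjusted p under 0.05, while 8.83% of all tested genes did. Of these 7 were higher (4.20% of all genes were) and 5 lower (4.63% of all genes). The arrays of the groups did not overlap for 11 members, and for 9.69% of all genes. Between both GK groups 6 members (11.8%) differed, near the 9.65% of all genes. All 6 were higher, against 5.16% of all genes higher and 4.49% lower, and the arrays of 8 members did not overlap (9.0% of all genes). Without the 2 dimmer arrays 11 members differed in this comparison, the same 6 higher and 5 lower (B4galnt1, Fut4, Galnt11, St6gal1, St6galnac3), and 12.5% of all genes did. Between GK-S-30 and Wistar rats 23 members (45.1%) differed and 26.2% of all genes did, 14 of them higher (12.4% of all genes) and 9 lower (13.8%). The arrays of 19 members did not overlap, and those of 19.5% of all genes. In at least 1 of the 3 pairs, which share groups, 25 of 51 members (49%) and 29.3% of all genes differed. St6galnac1, B3gnt6, St8sia6, St3gal3 and Fut7 passed the filter only through the groups where they were high. Among the 43 members above background on every array, 9 differed between GK-Sham-PF and Wistar (8.47% of all genes so filtered), 6 between the GK groups (9.48%) and 18 between GK-S-30 and Wistar (26%).

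The median log2 fold change of the tested members was 0.06 from Wistar to GK-Sham-PF, 0.10 from GK-Sham-PF to GK-S-30 and 0.12 from Wistar to GK-S-30, beside 0.01, -0.03 and -0.02 over all genes. Of the 25 members, 10 differed from Wistar in both GK groups and not between them, 5 lower and 5 higher. Another 9 differed only between GK-S-30 and Wistar, 5 higher and 4 lower. Fut2 and St3gal5 were higher in GK-S-30 than in both other groups, Fut1 and B4galnt4 were higher than in GK-Sham-PF only, and St3gal4 and Gcnt3 were higher in each of the 3 pairs. These counts are not tests of a difference between the comparisons. The shares of all genes with the same patterns were not counted, so the patterns cannot be read as particular to the members.

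**Figure D1:**
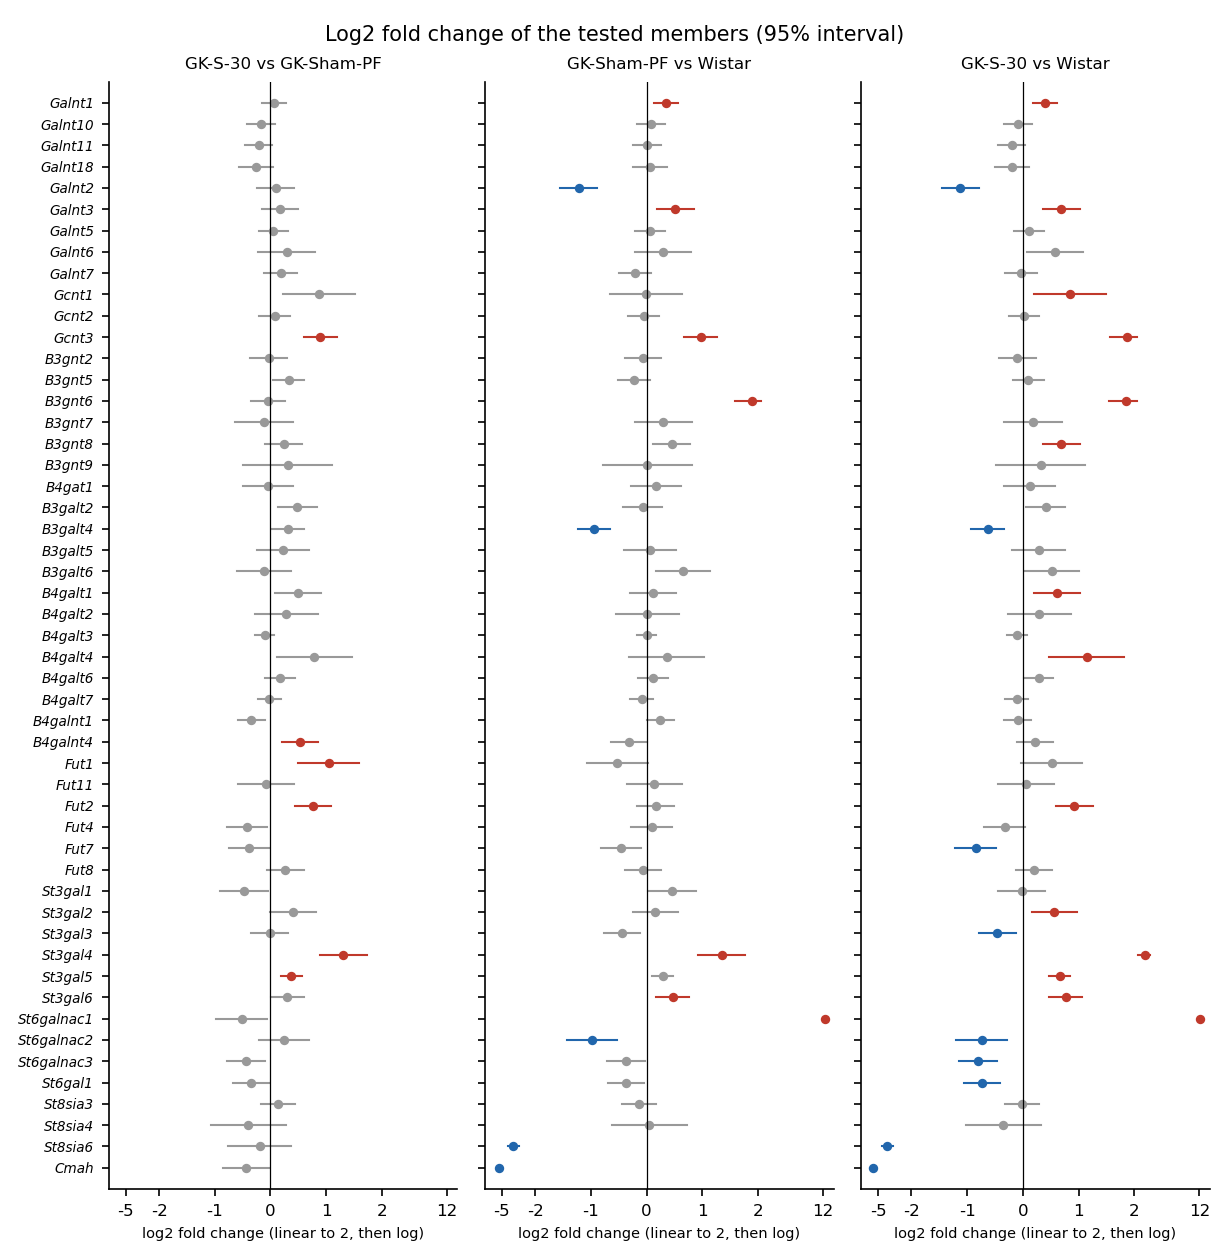
Log2 fold change of the 51 tested members in the 3 comparisons, with points for the limma estimate and lines for its 95% interval, red for higher and blue for lower at an adjusted p under 0.05 and grey otherwise; the x axis is linear to 2 and logarithmic beyond. St6galnac1, Cmah and St8sia6 lie far from 0 in both comparisons with Wistar. For St6galnac1 and St8sia6 the points are fitted values against groups at background. Their bounds for GK-Sham-PF, at least 1750-fold and at least 4.56-fold, are those of the main processing, and some alternatives gave smaller differences. All 6 coloured points in GK-S-30 relative to GK-Sham-PF lie to the right.

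The largest difference from Wistar was that of a sialyltransferase. St6galnac1, the sialyl-Tn synthase, read 2.33, 1.26, 1.31, 1.26 and 1.25 on the Wistar arrays, 14.21, 14.15, 14.28, 14.17 and 13.71 on the GK-Sham-PF arrays and 13.09, 13.90, 13.87, 13.38 and 13.70 on the GK-S-30 arrays (log2 intensity). No Wistar array was well above background, and all 10 GK arrays were far above it with no overlap. Against the lowest signal that counted as above background, St6galnac1 was at least 1750-fold higher in GK-Sham-PF than in Wistar rats, and for GK-S-30 the bound was 1220-fold (measured means 1.48, 14.11 and 13.59; limma adjusted p = 4.25e-15 and 7.96e-15). The bounds are those of the main processing. Across the alternatives the log2 fold change of GK-Sham-PF from Wistar ran from 7.66 to 12.8. That low end falls short of 1750-fold. On slide B, which held both groups, the 3 GK-Sham-PF arrays were above background and the Wistar array was not. Between the GK groups St6galnac1 was -0.52 in GK-S-30 relative to GK-Sham-PF (95% interval -0.97 to -0.06, adjusted p = 0.153), which did not pass. With another background correction (normexp) it passed there as lower. St6galnac1 passed the filter on dim probes only through the GK groups, where it was bright, so it had to differ from Wistar and the p-values are no further support.

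St6galnac2, which sialylates core 1 and Tn O-glycans, lies 78.3 kb from St6galnac1 on the same strand (probe to probe, rn4), and its difference had the opposite sign. Its log2 intensities were 7.30, 7.02, 6.25, 7.07 and 6.97 on the Wistar arrays, 6.09, 6.28, 6.02, 6.14 and 5.16 on the GK-Sham-PF arrays and 6.03, 6.33, 6.45, 6.0 and 6.09 on the GK-S-30 arrays. The GK-Sham-PF arrays lay near or below the lowest Wistar array, Wistar replicate 3, with a small overlap. St6galnac2 was lower in GK-Sham-PF (log2 fold change -0.98, standard error 0.21, limma adjusted p = 0.00786) and in GK-S-30 (log2 fold change -0.74, standard error 0.21, limma adjusted p = 0.0185) than in Wistar rats, and with slide as a block the differences were -1.17 (adjusted p = 0.226) and -0.64 (adjusted p = 0.576). Without Wistar replicate 1 the second had an adjusted p of 0.0517. St6galnac3, which adds sialic acid to already sialylated chains, read 7.10, 6.96, 6.98, 6.98 and 7.12 on the Wistar arrays, 6.82, 6.83, 6.78, 6.87 and 6.01 on the GK-Sham-PF arrays and 5.76, 6.38, 6.30, 6.40 and 6.23 on the GK-S-30 arrays. GK-S-30 lay below every Wistar array (log2 fold change -0.81, standard error 0.16, limma adjusted p = 0.00178; with the slide block -0.65 (adjusted p = 0.446)). The other 8 probes within 100 kb of the St6galnac1 probe, for Mettl23, Srsf2, Mfsd11, Jmjd6, Mxra7 and 3 unnamed transcripts, were well above background on all 15 arrays, and of these Mxra7 had group means of 4.82, 5.01 and 5.85 in that order of groups from Wistar to GK-S-30 and Jmjd6 of 7.83, 8.36 and 8.44.

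Cmah, the hydroxylase that makes the N-glycolyl form of sialic acid, differed in the other direction. Its log2 intensities were 13.96, 14.40, 14.39, 13.87 and 14.03 on the Wistar arrays, 9.49, 8.87, 8.63, 8.39 and 8.38 on the GK-Sham-PF arrays and 8.23, 8.32, 8.01, 8.48 and 8.52 on the GK-S-30 arrays. All 5 Wistar arrays were bright, the GK arrays were far lower without overlap, and all 15 were well above background. Wistar rats were 41.7-fold higher than GK-Sham-PF (log2 fold change -5.38, standard error 0.19, limma adjusted p = 9.46e-11) and 56.5-fold higher than GK-S-30 rats (log2 fold change -5.82, standard error 0.19, limma adjusted p = 3.07e-11). With slide as a block the log2 differences were -4.97 (adjusted p = 6.56e-06) and -5.07 (adjusted p = 0.000127). GK-S-30 against GK-Sham-PF was -0.44 (95% interval -0.85 to -0.03, adjusted p = 0.18), and within slide C it was -0.10. The array held no other probe within 100 kb of the Cmah probe.

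St8sia6, which links a second sialic acid onto sialylated O-glycans, was by measured means the third large difference from Wistar. It read 4.71, 5.58, 6.28, 5.13 and 5.43 on the Wistar arrays, 1.36, 1.53, 1.36, 1.91 and 2.60 on the GK-Sham-PF arrays and 1.41, 1.75, 1.54, 1.45 and 1.64 on the GK-S-30 arrays. It was well above background on every Wistar array and on no GK array, and it passed the filter through Wistar alone, so that it too had to differ. Wistar rats were at least 4.56-fold higher than GK-Sham-PF and at least 3.76-fold higher than GK-S-30 rats, counted against the lowest signal above background (measured means 5.43, 1.75 and 1.56; limma adjusted p = 1.84e-07 and 8.59e-08). With another background correction (normexp), which lifts dim spots, the log2 fold changes were -0.58 and -0.60 in place of -3.67 and -3.87, and both calls stayed. For St6galnac1, Cmah and St8sia6 1 probe each was on the array, so a change in the transcript under the probe and a change in RNA level cannot be told apart.

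**Figure D2:**
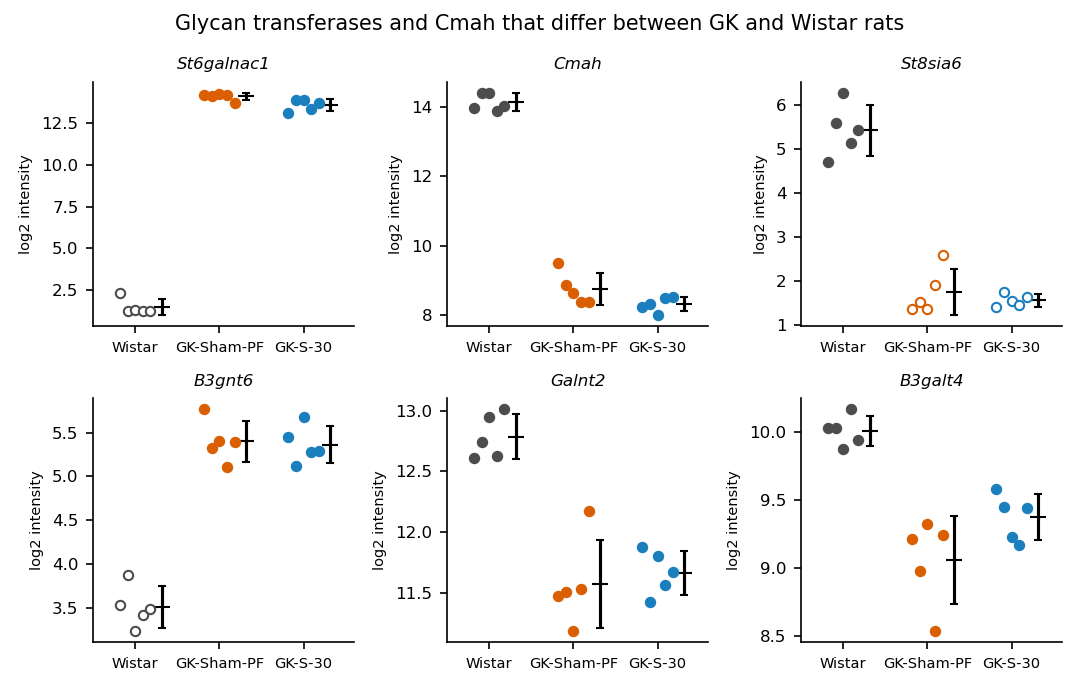
Log2 intensity of 6 members on each of the 15 arrays, by group, with the mean and SD (n = 5) beside the points; open circles mark groups that were not well above background on all 5 arrays, and each panel has its own y axis. St6galnac1 and B3gnt6 are higher and Cmah, St8sia6, Galnt2 and B3galt4 lower in both GK groups than in Wistar, with no overlap between Wistar and GK arrays.

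Among the enzymes that add sialic acid to galactose in the St3gal linkage, 5 of 6 differed between GK-S-30 and Wistar rats. Over all tested genes 26.2% differed in this pair. Of the 5, St3gal4 alone kept this call with slide as a block. St3gal4, which caps N-acetyllactosamine arms, read 6.17, 6.56, 6.72, 6.04 and 6.41 on the Wistar arrays, 7.67, 7.34, 7.88, 7.57 and 8.19 on the GK-Sham-PF arrays and 9.61, 9.07, 9.09, 8.51 and 8.91 on the GK-S-30 arrays. The 3 groups did not overlap and stood in the order Wistar, GK-Sham-PF, GK-S-30. St3gal4 was 2.55-fold higher in GK-Sham-PF than in Wistar (log2 fold change 1.35, standard error 0.20, limma adjusted p = 0.00033), 2.48-fold higher in GK-S-30 compared with GK-Sham-PF (log2 fold change 1.31, standard error 0.20, limma adjusted p = 0.000867) and 6.32-fold higher in GK-S-30 than in Wistar (log2 fold change 2.66, standard error 0.20, limma adjusted p = 2.15e-07). Slide as a block left the RL difference at 1.46 (adjusted p = 0.0259), and the GK-Sham-PF difference from Wistar at 1.46 (adjusted p = 0.0641) missed the threshold. Without the dimmer arrays they were 1.43 (adjusted p = 0.000706) and 1.32 (adjusted p = 0.00082). Of the named genes nearby, Dcps, 51.9 kb from the St3gal4 probe, had group means of 8.08, 9.08 and 9.50 in the same order of groups.

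St3gal5, the GM3 synthase that begins the ganglioside series, moved less but with little spread. It read 11.85, 11.84, 12.06, 11.87 and 11.99 on the Wistar arrays, 12.21, 12.07, 12.25, 12.19 and 12.34 on the GK-Sham-PF arrays and 12.60, 12.78, 12.39, 12.48 and 12.65 on the GK-S-30 arrays. GK-S-30 lay above every other array and was 1.29-fold higher than GK-Sham-PF (log2 fold change 0.37, standard error 0.09, limma adjusted p = 0.0175) and 1.58-fold higher than Wistar (log2 fold change 0.66, standard error 0.09, limma adjusted p = 7.75e-05). GK-Sham-PF also lay above every Wistar array, at 0.29 with an adjusted p of 0.0588, which did not pass. With slide as a block the first 2 were 0.43 (adjusted p = 0.149) and 0.76 (adjusted p = 0.111).

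St3gal6, another N-acetyllactosamine sialyltransferase, read 6.04, 5.90, 6.13, 6.08 and 5.91 on the Wistar arrays, 7.06, 6.35, 6.23, 6.37 and 6.40 on the GK-Sham-PF arrays and 6.70, 6.71, 6.83, 6.61 and 7.05 on the GK-S-30 arrays. Both GK groups lay above Wistar (log2 fold change 0.47, standard error 0.14, limma adjusted p = 0.048 for GK-Sham-PF and log2 fold change 0.77, standard error 0.14, limma adjusted p = 0.000916 for GK-S-30). The first call held when GK-Sham-PF replicate 3 or GK-S-30 replicate 5 was left out and was lost without any 1 of the other 13 arrays (adjusted p up to 0.111), and the slide block gave 0.50 (adjusted p = 0.678) and 0.82 (adjusted p = 0.306). St3gal2, which acts on O-glycans and gangliosides, read 6.16, 5.81, 5.50, 6.13 and 6.09 on the Wistar arrays, 6.20, 6.45, 6.11, 6.43 and 5.29 on the GK-Sham-PF arrays and 6.64, 6.48, 6.43, 6.47 and 6.49 on the GK-S-30 arrays. GK-S-30 lay above all Wistar arrays (log2 fold change 0.56, standard error 0.19, limma adjusted p = 0.041), a call that was lost without any 1 of 10 arrays and kept without Wistar replicate 1 or 4 or GK-Sham-PF replicate 2, 4 or 5 (adjusted p up to 0.0953), and that stood at 0.79 (adjusted p = 0.451) with the slide block.

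St3gal3 was the family member that was lower. It read 4.48, 4.16, 4.72, 4.60 and 4.38 on the Wistar arrays, 4.30, 3.92, 4.23, 4.04 and 3.64 on the GK-Sham-PF arrays and 4.05, 4.29, 4.24, 3.80 and 3.68 on the GK-S-30 arrays, overlapping between the groups. The difference between GK-S-30 and Wistar (log2 fold change -0.46, standard error 0.15, limma adjusted p = 0.0389) was lost without Wistar replicate 1, 3, 4 or 5 or GK-S-30 replicate 1, 4 or 5 (adjusted p up to 0.0998). It turned to 0.003 with slide as a block (adjusted p = 0.998). St3gal3 was above background on 5 Wistar arrays and on 4 in each GK group, so it passed the filter only through Wistar, where it was high. St3gal1, the core 1 sialyltransferase, did not pass in any pair, with log2 fold changes of 0.46 (adjusted p = 0.202) for GK-Sham-PF against Wistar and -0.48 (adjusted p = 0.158) for GK-S-30 relative to GK-Sham-PF. St6gal1, which sialylates N-glycans, read 9.78, 9.20, 9.46, 9.28 and 9.63 on the Wistar arrays, 9.18, 9.40, 9.12, 9.17 and 8.62 on the GK-Sham-PF arrays and 8.71, 8.96, 8.66, 8.45 and 8.93 on the GK-S-30 arrays. GK-S-30 lay below every Wistar array (log2 fold change -0.73, standard error 0.15, limma adjusted p = 0.00256; slide block -0.61 (adjusted p = 0.423)). A second, dimmer St6gal1 probe, above background on 3 arrays, gave -1.09.

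The first step of O-glycosylation was split between family members. Galnt2 read 12.61, 12.74, 12.95, 12.62 and 13.01 on the Wistar arrays, 11.47, 11.50, 11.18, 11.53 and 12.17 on the GK-Sham-PF arrays and 11.87, 11.42, 11.80, 11.56 and 11.67 on the GK-S-30 arrays. Both GK groups lay below all Wistar arrays, and Wistar was 2.32-fold higher than GK-Sham-PF (log2 fold change -1.22, standard error 0.16, limma adjusted p = 9.25e-05) and 2.18-fold higher than GK-S-30 (log2 fold change -1.12, standard error 0.16, limma adjusted p = 0.000104). With slide as a block the differences were -1.22 (adjusted p = 0.0435) and -1.43 (adjusted p = 0.0637). Galnt3, of the same family, went the other way, with 4.46, 4.85, 4.24, 4.80 and 4.55 on the Wistar arrays, 5.16, 5.19, 5.05, 4.84 and 5.25 on the GK-Sham-PF arrays and 5.74, 4.84, 5.33, 5.18 and 5.27 on the GK-S-30 arrays. It was higher in GK-S-30 (log2 fold change 0.69, standard error 0.15, limma adjusted p = 0.00417) and in GK-Sham-PF (log2 fold change 0.52, standard error 0.15, limma adjusted p = 0.0493) than in Wistar, with 1 GK array of each group inside the Wistar range. The GK-Sham-PF call was kept without Wistar replicate 2, GK-Sham-PF replicate 4 or GK-S-30 replicate 1 or 2 and lost without any 1 of the other 11 (adjusted p up to 0.108), and the slide block gave 0.67 (adjusted p = 0.54) for GK-Sham-PF and 0.91 (adjusted p = 0.324) for GK-S-30.

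Galnt1 read 10.10, 10.22, 9.86, 10.04 and 10.24 on the Wistar arrays, 10.50, 10.41, 10.19, 10.54 and 10.54 on the GK-Sham-PF arrays and 10.52, 10.44, 10.57, 10.31 and 10.63 on the GK-S-30 arrays, higher in GK-S-30 than on every Wistar array (log2 fold change 0.40, standard error 0.10, limma adjusted p = 0.00828). GK-Sham-PF was also higher (log2 fold change 0.34, standard error 0.10, limma adjusted p = 0.0451), a call kept without Wistar replicate 2 or 5, GK-Sham-PF replicate 3 or GK-S-30 replicate 4 and lost without any 1 of the other 11 (adjusted p up to 0.106). The second Galnt1 probe, also above background on all arrays, gave 0.03 and -0.03 for these comparisons, so the 2 probes disagreed, and the slide block gave 0.20 (adjusted p = 0.751) and 0.27 (adjusted p = 0.866). The other 6 tested Galnt genes did not pass in any pair. Their differences ran from -0.26 (Galnt18) to 0.58 (Galnt6, GK-S-30 against Wistar, adjusted p = 0.0853). Without the dimmer arrays Galnt6 (0.37, adjusted p = 0.0156) and Galnt11 (-0.25, adjusted p = 0.0388) passed in that comparison.

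Of the 3 tested branching enzymes, Gcnt3 alone differed between the RL and sham intestine. Gcnt3, the mucin-type enzyme of core 2 and core 4 branches, read 11.27, 11.60, 11.45, 11.35 and 11.16 on the Wistar arrays, 12.10, 12.53, 12.59, 12.23 and 12.24 on the GK-Sham-PF arrays and 13.16, 13.34, 13.55, 13.29 and 12.80 on the GK-S-30 arrays. As with St3gal4, the 3 groups did not overlap and rose from Wistar to GK-Sham-PF to GK-S-30. Gcnt3 was 1.96-fold higher in GK-Sham-PF than in Wistar (log2 fold change 0.97, standard error 0.14, limma adjusted p = 0.000266), 1.85-fold higher in GK-S-30 compared with GK-Sham-PF (log2 fold change 0.89, standard error 0.14, limma adjusted p = 0.00114) and 3.64-fold higher in GK-S-30 than in Wistar (log2 fold change 1.86, standard error 0.14, limma adjusted p = 2.23e-07). The slide block gave 1.14 (adjusted p = 0.0756), 1.02 (adjusted p = 0.0494) and 2.16 (adjusted p = 0.0101). Every leave-one-out fit kept all 3 calls of Gcnt3 and all 3 of St3gal4.

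Gcnt1, the core 2 enzyme of leukocytes and epithelium, read 6.10, 6.64, 5.90, 6.58 and 6.20 on the Wistar arrays, 6.39, 6.17, 5.97, 6.39 and 6.44 on the GK-Sham-PF arrays and 6.88, 8.54, 7.19, 6.50 and 6.59 on the GK-S-30 arrays. GK-S-30 lay above all GK-Sham-PF arrays, but its own arrays spread widely and replicate 2 stood highest. The difference from Wistar (log2 fold change 0.85, standard error 0.30, limma adjusted p = 0.0495) was kept only without Wistar replicate 2 or GK-S-30 replicate 4 or 5, and without GK-S-30 replicate 2 it was 0.50. Against GK-Sham-PF it was 0.86 (adjusted p = 0.0889), and with the slide block the Wistar comparison was 1.37 (adjusted p = 0.354). Gcnt2, the I-branching enzyme, did not pass, with 0.07 in GK-S-30 relative to GK-Sham-PF (95% interval -0.20 to 0.35).

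B3gnt6, the core 3 synthase, was higher in both GK groups than in Wistar. It read 3.53, 3.88, 3.23, 3.42 and 3.48 on the Wistar arrays, 5.77, 5.32, 5.41, 5.11 and 5.39 on the GK-Sham-PF arrays and 5.44, 5.12, 5.68, 5.27 and 5.29 on the GK-S-30 arrays. The GK groups lay above all Wistar arrays, of which 2 of 5 were well above background. B3gnt6 was higher in GK-Sham-PF (log2 fold change 1.89, standard error 0.14, limma adjusted p = 2.69e-07) and in GK-S-30 (log2 fold change 1.85, standard error 0.14, limma adjusted p = 2.74e-07) than in Wistar, at 1.97 (adjusted p = 0.00209) and 2.0 (adjusted p = 0.0148) with slide as a block. Between the GK groups the difference was -0.04 (95% interval -0.34 to 0.27). The size depends on how dim spots are treated: with normexp the log2 fold changes were 0.49 and 0.44. B3gnt6 passed the filter only through the GK groups, where it was high, and 3 Wistar arrays at background leave its size against Wistar uncertain.

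Among the enzymes that lengthen lactosamine arms, B3gnt8, which acts on branched N-glycans, read 5.49, 4.84, 5.40, 5.72 and 5.48 on the Wistar arrays, 6.06, 5.76, 5.84, 5.72 and 5.82 on the GK-Sham-PF arrays and 5.92, 6.40, 5.73, 6.09 and 6.23 on the GK-S-30 arrays. It was higher in GK-S-30 than on all Wistar arrays (log2 fold change 0.69, standard error 0.16, limma adjusted p = 0.00435; slide block 0.80 (adjusted p = 0.387)). The other 5 tested B3gnt genes passed in no pair, among them B3gnt7 at 0.30 in GK-Sham-PF against Wistar (95% interval -0.22 to 0.82). B3gnt3, which extends core 1, stayed below the filter, with 3.25, 3.63, 2.44, 3.65 and 3.12 on the Wistar arrays, 3.52, 2.89, 2.63, 3.48 and 3.16 on the GK-Sham-PF arrays and 4.82, 4.27, 4.21, 4.31 and 3.87 on the GK-S-30 arrays and 1, 1 and 4 arrays above background. Every GK-S-30 array lay above the others, most of which were at background. B3gnt3 was outside the fit and is named because its values were seen to separate.

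B4galt4, a galactosyltransferase of lactosamine, read 8.26, 8.38, 6.90, 8.38 and 8.08 on the Wistar arrays, 8.65, 8.80, 8.60, 8.31 and 7.45 on the GK-Sham-PF arrays and 9.77, 8.76, 9.52, 8.89 and 8.79 on the GK-S-30 arrays. GK-S-30 lay above every Wistar array and was 2.21-fold higher (log2 fold change 1.15, standard error 0.32, limma adjusted p = 0.0147). The 2 dimmer arrays were the lowest, and without them the difference was 0.87 (adjusted p = 0.00607), with the slide block 1.81 (adjusted p = 0.27). B4galt1, the main enzyme of type 2 lactosamine, read 6.47, 6.07, 6.29, 5.96 and 6.02 on the Wistar arrays, 6.18, 6.40, 6.24, 6.11 and 6.45 on the GK-Sham-PF arrays and 7.55, 6.14, 6.72, 6.68 and 6.79 on the GK-S-30 arrays, with GK-S-30 replicate 1 highest. It was higher in GK-S-30 than in Wistar (log2 fold change 0.61, standard error 0.19, limma adjusted p = 0.0292), a call lost without Wistar replicate 2, 4 or 5 or GK-S-30 replicate 1 or 5 (adjusted p up to 0.0659) and at 0.36 (adjusted p = 0.772) with the slide block. A second B4galt1 probe gave 0.97. The other 4 B4galt genes did not pass: B4galt3 in GK-Sham-PF was 0.00 from Wistar, B4galt3 in GK-S-30 was -0.10 from it, and B4galt6, the lactosylceramide synthase, was 0.28 (adjusted p = 0.104) in GK-S-30 against Wistar. The second B4galt6 probe, above background on all arrays, gave 0.83 there and 0.51 against GK-Sham-PF, and without the dimmer arrays the first probe passed against Wistar at 0.35 (adjusted p = 0.0494).

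B3galt4, which makes gangliosides of the GM1 type, read 10.03, 10.03, 9.87, 10.16 and 9.94 on the Wistar arrays, 9.22, 8.98, 9.32, 8.54 and 9.24 on the GK-Sham-PF arrays and 9.58, 9.45, 9.23, 9.17 and 9.44 on the GK-S-30 arrays. All GK arrays lay below all Wistar arrays, at -0.94 in GK-Sham-PF (standard error 0.14, limma adjusted p = 0.000288) and -0.63 in GK-S-30 (standard error 0.14, adjusted p = 0.00339). The slide block gave -0.85 (adjusted p = 0.157) and -0.23 (adjusted p = 0.784). GK-S-30 against GK-Sham-PF was 0.31 (adjusted p = 0.175). B3galt5, which makes type 1 chains in the gut, did not pass, with 0.23 in GK-S-30 relative to GK-Sham-PF (95% interval -0.24 to 0.69), nor did B3galt2 (0.48 (adjusted p = 0.0819)) or B3galt6 (0.65 (adjusted p = 0.102) in GK-Sham-PF against Wistar).

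Fut1 and Fut2, which add the fucose of the H antigen and whose probes lie 30.5 kb apart, were both higher in the RL than in sham intestine. Fut2, the secretor enzyme of mucosal epithelium, read 8.10, 8.28, 7.50, 8.18 and 8.16 on the Wistar arrays, 8.28, 8.34, 8.15, 8.16 and 8.09 on the GK-Sham-PF arrays and 9.34, 8.72, 9.21, 8.66 and 8.90 on the GK-S-30 arrays. GK-S-30 lay above all other arrays and was 1.70-fold higher than GK-Sham-PF (log2 fold change 0.76, standard error 0.15, limma adjusted p = 0.00667) and 1.90-fold higher than Wistar (log2 fold change 0.93, standard error 0.15, limma adjusted p = 0.000478). Its second probe gave 0.57 and 0.71. GK-Sham-PF and Wistar were 0.16 apart (95% interval -0.17 to 0.49), and the slide block gave 0.90 (adjusted p = 0.105) for the RL against sham, 0.90 within slide C, and 1.07 (adjusted p = 0.241) against Wistar.

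Fut1 read 7.36, 7.79, 6.30, 7.86 and 7.42 on the Wistar arrays, 7.20, 6.70, 7.26, 6.48 and 6.47 on the GK-Sham-PF arrays and 7.76, 8.20, 7.95, 7.53 and 7.87 on the GK-S-30 arrays. GK-S-30 lay above all GK-Sham-PF arrays and was 2.06-fold higher (log2 fold change 1.04, standard error 0.26, limma adjusted p = 0.0202), while Wistar overlapped both groups and its dimmer array, replicate 3, was the lowest of all. Against Wistar, GK-S-30 was 0.52 (adjusted p = 0.155) and GK-Sham-PF -0.52 (adjusted p = 0.271). Without the 2 dimmer arrays the second was -0.70 (adjusted p = 0.0375) and the RL against sham 0.95 (adjusted p = 0.00579). With slide as a block the RL difference was 1.51 (adjusted p = 0.0829).

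Fut7, which finishes sialyl Lewis x on selectin ligands of leukocytes, went the other way. It read 4.47, 5.03, 4.75, 4.82 and 4.55 on the Wistar arrays, 4.68, 4.03, 4.48, 4.22 and 3.91 on the GK-Sham-PF arrays and 4.18, 3.75, 4.07, 3.42 and 3.97 on the GK-S-30 arrays. GK-S-30, with 3 of 5 arrays above background, lay below all Wistar arrays (log2 fold change -0.85, standard error 0.17, limma adjusted p = 0.00205; slide block -0.17 (adjusted p = 0.884)). Fut7 passed the filter only through Wistar and GK-Sham-PF, where it was higher. It was not tested with every array required above background. The summed signal of 6 T and NK cell markers was 2660 to 4170 in GK-S-30, 4750 to 6130 in GK-Sham-PF and 4240 to 6650 in Wistar rats. Other leukocyte lists differed from this. In the same order of groups, 6 B and plasma cell markers summed to 1500 to 2750, 1290 to 2000 and 1060 to 1440. For 6 macrophage and granulocyte markers the sums were 2150 to 2650, 2650 to 3020 and 2290 to 3470. For 5 mast cell markers they were 468 to 847, 651 to 972 and 733 to 1270. The part of these cells in the Fut7 difference was not tested. Fut4, which makes Lewis x, was -0.42 (adjusted p = 0.148) in GK-S-30 relative to GK-Sham-PF, and -0.57 (adjusted p = 0.00521) without the dimmer arrays. Fut8, the core fucose enzyme of N-glycans, was 0.27 (adjusted p = 0.31), and Fut11 was -0.08 (adjusted p = 0.878).

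B4galnt4, which makes N,N'-diacetyllactosamine, was the last of the 6 that were higher in the RL than in sham intestine. It read 9.28, 9.32, 8.88, 9.51 and 9.13 on the Wistar arrays, 8.86, 8.81, 9.07, 8.91 and 8.88 on the GK-Sham-PF arrays and 9.23, 8.97, 9.87, 9.52 and 9.57 on the GK-S-30 arrays. The 3 highest GK-S-30 arrays were the 3 of slide D, and replicate 2 lay inside the GK-Sham-PF range. The difference (log2 fold change 0.53, standard error 0.15, limma adjusted p = 0.04) was kept without Wistar replicate 2, 3 or 4 or GK-S-30 replicate 1 or 2 and lost without any 1 of the other 10 arrays (adjusted p up to 0.0914), and it was 0.20 (adjusted p = 0.65) with slide as a block. B4galnt1, the GM2 synthase, lay below all GK-Sham-PF arrays in GK-S-30, at -0.34 (adjusted p = 0.0786), and at -0.39 (adjusted p = 0.046) without the dimmer arrays.

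**Figure D3:**
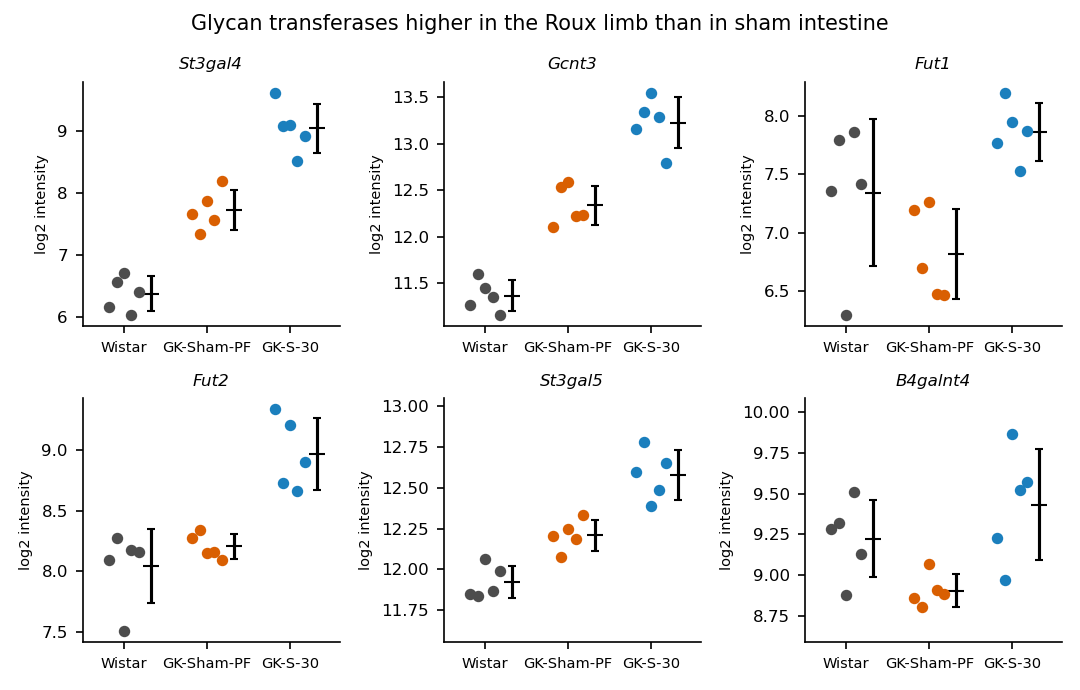
Log2 intensity on each of the 15 arrays of the 6 members that were higher in GK-S-30 compared with GK-Sham-PF rats, by group, with the mean and SD (n = 5) beside the points; each panel has its own y axis. St3gal4 and Gcnt3 separate all 3 groups in the order Wistar, GK-Sham-PF, GK-S-30, Fut2 and St3gal5 place GK-S-30 above all other arrays, and B4galnt4 overlaps.

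Outside the tested set, 15 members were dim. B3galt1, Fut9, Galnt13, Galntl5, St8sia1 and St8sia5 were well above background on no array, which bounds their level only. The other 9 were above it on 1 to 10 arrays. St8sia3 and St8sia4, which extend sialic acid chains, were tested and did not pass. St8sia4 was -0.40 in GK-S-30 relative to GK-Sham-PF (95% interval -1.07 to 0.27), with a second probe at 0.11. In all, 43 members were above background on every array.

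RNA of genes for the supply of donor sugars, which stand outside the name rule, was also compared. The levels of these sugars were not measured. Of 17 tested genes of nucleotide sugar synthesis, 4 differed in GK-S-30 from GK-Sham-PF (3 higher, 1 lower), where 9.65% of all tested genes did. None differed between GK-Sham-PF and Wistar (8.83% of all genes), and 7 differed in GK-S-30 from Wistar, 4 of them higher (26.2% of all genes). The same shares of all genes apply to the lists that follow. Gfpt1, the first enzyme of the hexosamine pathway, was 0.86 (adjusted p = 0.00111) in the RL against sham. Gmds, which begins the synthesis of GDP-fucose, the donor of the Fut enzymes, was 0.70 (adjusted p = 0.0041). Pgm3, later in the hexosamine pathway, was -0.52 (adjusted p = 0.00524). Cmas, which activates sialic acid with CMP, was -0.53 (adjusted p = 0.00196) in GK-S-30 against Wistar.

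Of 10 nucleotide sugar transporters, Slc35c2 alone passed between GK-Sham-PF and Wistar, at -1.88 (adjusted p = 8.47e-08), and it was lower again in GK-S-30 compared with GK-Sham-PF, at -0.45 (adjusted p = 0.0384). Of 18 tested enzymes of other steps, B3galnt1 (globoside synthase) was 0.56 (adjusted p = 0.0141) and A3galt2 was 0.62 (adjusted p = 0.0309) in the RL against sham. Chst2, which sulfates N-acetylglucosamine, was 0.83 (adjusted p = 0.0147) in GK-Sham-PF against Wistar and -0.84 (adjusted p = 0.0156) in the RL against sham. C1galt1, the core 1 synthase that competes with B3gnt6 and St6galnac1 for the same acceptor, was 0.76 (adjusted p = 0.0201) in GK-S-30 against Wistar.

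Of 10 tested glycosidases, Fuca2, a fucosidase, was 0.54 (adjusted p = 0.0373) in GK-Sham-PF against Wistar and 0.83 (adjusted p = 0.00328) in the RL against sham, while Fuca1, the lysosomal fucosidase, was -0.32 (adjusted p = 0.0245) in the first. Of 11 tested mucins, galectins and other carriers none passed between the GK groups. Pigr, the immunoglobulin carrier of epithelium, was 0.74 (adjusted p = 0.00685), Lgals2 0.49 (adjusted p = 0.00431) and Lgals9 0.56 (adjusted p = 0.0235) in GK-Sham-PF against Wistar.

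Markers of some cell types differed between the groups and those of others did not. None of 10 enterocyte markers and 1 of 6 goblet markers (Clca1, 0.73 (adjusted p = 0.0143)) differed between the GK groups. In GK-S-30, 4 of 5 tuft, 4 of 8 smooth muscle and 4 of 6 fibroblast markers were higher. So were 3 of 6 ileum and distal intestine and 2 of 4 tested B and plasma cell markers. Of 8 enteroendocrine markers 3 were higher and 1 lower, and 2 of 5 tested T and NK cell markers were lower. In this pair 9.65% of all tested genes differed. The summed tuft signal was 1740 to 3130 in GK-S-30, 255 to 1390 in GK-Sham-PF and 630 to 1420 in Wistar rats. Summed enterocyte signal was 1020000 to 1210000, 1120000 to 1280000 and 1180000 to 1370000. Between GK-Sham-PF and Wistar no enterocyte, goblet, tuft or smooth muscle marker passed, where 8.83% of all tested genes did. In this pair 3 of 4 tested B and plasma cell markers and 3 of 6 macrophage and granulocyte markers were higher in GK-Sham-PF. Of 10 gastric markers 5 were bright enough to test and Cblif was never above background. The part of these cell types in the differences from Wistar and in the RL differences of St3gal4, Gcnt3, Fut1, Fut2, St3gal5 and B4galnt4 was not tested.

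**Figure D4:**
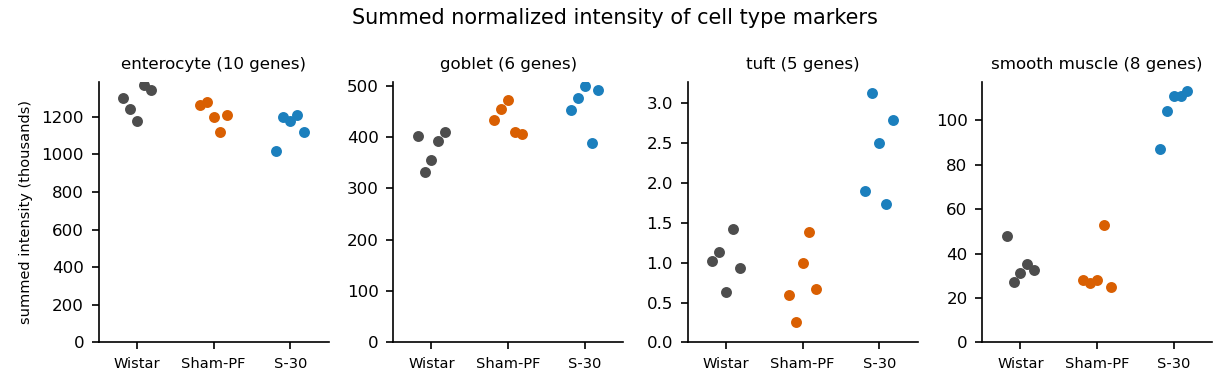
Summed normalized intensity (divided by 1000) of marker genes of 4 cell types on each of the 15 arrays, by group; all axes start at 0. Tuft and smooth muscle signal in GK-S-30 lies above every other array, while the enterocyte and goblet ranges of the GK groups overlap.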

How the data were processed

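RNA of intestine from 15 rats was hybridised to 1-colour Agilent arrays, 1 rat per array. The deposited array files hold spot intensity, which the authors extracted with Agilent Feature Extraction 10.7. The deposited series matrix holds log2 values that the authors had quantile normalized, and it served as an alternative. Here log2 of the processed signal was quantile normalized after outlier spots were left out. Of 41012 noncontrol probes, 22501 could be named, most through RefSeq accessions. Probes well above background on all arrays of at least 1 group were kept, with the brightest probe per gene. All 3 groups were fitted together with limma 3.58.1 (R 4.3.3), and p-values were adjusted over 13022 genes by Benjamini-Hochberg at 0.05. Fold bounds use the lowest signal above background on each array. The members and lists were chosen with earlier results of these data known. All called members are named, each with its value on every array. Replicate numbers are names only, and p-values measure the spread between these rats. The number of arrays limits the precision, with a median standard error of 0.15 (log2). The fit was tested on simulated data. Alternatives covered scaling, background correction, the filter, slide and replicate blocks and single arrays left out. 1 result of the nucleotide sugar list is not reported here.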

Additional observations from a re-analysis of the deposited data

Results flagged for a closer look

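In 18 of 153 groups of 5 arrays of the tested members, 1 array lay far from the other 4, where chance alone marks about 1 in 20 groups. Values are log2 intensities. On GK-Sham-PF replicate 5, a dimmer array, these were Fut8 (9.46, others 9.99 to 10.12), Galnt11 (9.44, others 9.91 to 9.94), Galnt6 (11.05, others 11.94 to 12.23), St6galnac1 (13.71, others 14.15 to 14.28), St6galnac2 (5.16, others 6.02 to 6.28) and St6galnac3 (6.01, others 6.78 to 6.87), all below the other arrays. On Wistar replicate 3, the other dimmer array, they were B3gnt2 (9.43, others 10.00 to 10.12), B4galt4 (6.90, others 8.08 to 8.38), Fut2 (7.50, others 8.10 to 8.28), Galnt5 (6.74, others 7.06 to 7.09) and Galnt6 (10.72, others 11.68 to 11.88), also all below. On GK-S-30 replicate 2 they were B3galt6 (4.33, others 5.05 to 5.26) and St8sia4 (6.27, others 4.73 to 5.12). On GK-S-30 replicate 3 it was Galnt5 (6.97, others 7.14 to 7.17). On GK-S-30 replicate 1 they were St3gal2 (6.64, others 6.43 to 6.49) and St6galnac3 (5.76, others 6.23 to 6.40). On GK-Sham-PF replicate 1 it was St3gal6 (7.06, others 6.23 to 6.40). On Wistar replicate 1 it was St6galnac1 (2.33, others 1.25 to 1.31).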

How the results depend on the processing

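Of the 41 calls of members, 32 held with any 1 of the 15 arrays left out. The number of members that differed then ranged from 5 to 8 between the GK groups, from 9 to 11 between GK-Sham-PF and Wistar and from 19 to 23 between GK-S-30 and Wistar, beside 6, 12 and 23 with all arrays. Over all 13022 genes these ranges were 865 to 1501, 864 to 1215 and 2824 to 3699, beside 1257, 1150 and 3412 with all arrays. With slide as a fixed block the counts were 2, 5 and 6, and over all genes 285, 179 and 237. Only slide B holds both Wistar and GK-Sham-PF arrays, only slide C both GK groups and none both Wistar and GK-S-30, so this block leaves few arrays to each comparison. St3gal3 in GK-S-30 against Wistar changed sign under it, to 0.003. With slide as a random block the counts were 6, 13 and 23 (1393 of 13022 genes, 9.89% and 29% of all genes). Replicate numbers did not pair the rats (correlations of same-numbered arrays -0.276 to 0.181), and with the replicate number as a block the counts were 3, 9 and 21 (6.82%, 6.56% and 21.9% of all genes). Without both dimmer arrays they were 11, 10 and 25 (12.5%, 9.91% and 29.9%). The cause of these changes was not tested. Scaling to the 75th percentile gave 8, 11 and 22 (1395 of 13022 genes, 7.92% and 26.4%), normexp 7, 10 and 21 (9.63%, 8.32% and 24.9%) and the series matrix 6, 12 and 23 (9.65%, 8.81% and 26.3%). Between the GK groups the scaling added Fut7 and St6galnac3, and normexp added St6galnac1, all lower in GK-S-30. Without the filter on dim probes the counts were 6, 9 and 21 of 66 (6.2%, 5.81% and 18.9%). With every array required above background they were 6, 9 and 18 of 43 (9.48%, 8.47% and 26%), and St6galnac1, B3gnt6, St8sia6, Fut7 and St3gal3 were then not tested. Probes near background set only a bound, which limits St6galnac1 in Wistar and St8sia6 in GK rats.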

Other observations

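Enzymes of the same families that the array files list under older names stood outside the name rule. St6galnac6, a sialyltransferase of gangliosides listed as Siat7F, was higher in GK-S-30 compared with GK-Sham-PF rats (log2 fold change 0.87, standard error 0.22, limma adjusted p = 0.0246) and did not pass against Wistar (0.38, adjusted p = 0.226). St6galnac4 and Gcnt4 passed in no pair.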
